A study of Homo sapiens with 26 samples.

Results

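Gene desert H3K27ac regions were H3K27ac peaks of HCT116 cells that lay far from every protein-coding gene start. They were taken from the merged union of 10 H3K27ac peak lists, which held 87570 regions. A region was kept when its midpoint lay over 100 kb from any GRCh37 coding start and when it was called in both lists of at least 1 of 5 groups. Of the 43683 regions called in both lists of a group, 2774 passed (6.35%). Members were thus chosen by H3K27ac peak calls and by position, and counts of members by those calls are given as description, with no test. The H3K27ac tests given are of the share of all peaks of a list and of signal rank over all regions. H3K4me1, sequence and noncoding annotation were not used in the choice.

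HCT116 is a colorectal cancer line with wild-type p53. Its WT cells had H3K27ac ChIP-seq at 0 h (DMSO vehicle) and after Nutlin-3a for 1 h or 10 h, and H3K4me1 ChIP-seq at the same 3 times. Nutlin-3a blocks the binding of MDM2 to p53, which raises p53. The RAD21 line, HCT116-RAD21-mAC, had H3K27ac at 0 h and 1 h. The study's methods give every allele of the cohesin subunit gene RAD21 in that line a degron tag. The auxin analogue 5-Ph-IAA triggers destruction of the tagged protein. The labels do not give this agent, while the peak names of that line carry the letters KD, and the tag, the agent and loss of RAD21 cannot be told apart in comparisons with WT. Each group had 2 lists, 1 per library. The labels do not say whether replicates came from separate cultures, so p-values measure only the spread between these lists. The lists give no read counts, and the depth behind each was not analysed here. The 10 input libraries were not analysed here.

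Active enhancers carry acetylated histone H3 lysine 27 (H3K27ac), and both active and primed enhancers carry monomethylated lysine 4 (H3K4me1). Gene deserts hold few coding genes but can hold enhancers that act over long distances, as well as genes for long noncoding RNAs and microRNAs. p53 is a transcription factor that binds as a tetramer to a response element built of paired decamers. Cohesin extrudes the DNA loops that bring distant enhancers and promoters together.

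Sequences are shown for the leading members of the sets described further on, to give the bases at their peak summits. They are read from the GRCh37 plus strand, 200 bases centred on the strongest summit. Capitals mark an AP-1 site in the first stretch and a p53 response element in the last. The first is the member with the highest signal rank over all 10 lists, at chr11:134721741-134721940, 439.7 kb from the start of B3GAT1. The second led the members gained at 10 h in WT, at chr9:67297580-67297779. The third led those gained at 1 h in WT, at chr22:27512239-27512438. The fourth lies in the widest member, over starts of LINC-PINT, at chr7:130588682-130588881. The last had the highest mean percentile among gained members with an element of 0 mismatches within 100 bp of the summit, at chr5:152191659-152191858, 378.9 kb from the start of NMUR2.
Highest member near B3GAT1: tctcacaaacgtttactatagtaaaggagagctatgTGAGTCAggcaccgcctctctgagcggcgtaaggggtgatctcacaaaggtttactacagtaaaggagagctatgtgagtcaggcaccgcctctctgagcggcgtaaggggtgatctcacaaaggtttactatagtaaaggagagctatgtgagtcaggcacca
WT 10 h gained member near FAM27E3: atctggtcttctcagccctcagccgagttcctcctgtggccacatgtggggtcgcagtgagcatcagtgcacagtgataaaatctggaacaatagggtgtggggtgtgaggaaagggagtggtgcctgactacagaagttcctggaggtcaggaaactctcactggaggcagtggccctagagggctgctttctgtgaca
WT 1 h gained member near CRYBA4: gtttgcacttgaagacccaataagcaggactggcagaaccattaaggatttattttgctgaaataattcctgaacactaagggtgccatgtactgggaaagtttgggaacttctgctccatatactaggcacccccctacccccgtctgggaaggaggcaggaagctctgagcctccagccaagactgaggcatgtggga
LINC-PINT member: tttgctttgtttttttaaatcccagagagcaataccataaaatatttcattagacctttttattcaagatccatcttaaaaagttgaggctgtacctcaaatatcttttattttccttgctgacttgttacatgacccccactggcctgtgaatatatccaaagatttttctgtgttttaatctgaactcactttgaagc
NMUR2 member: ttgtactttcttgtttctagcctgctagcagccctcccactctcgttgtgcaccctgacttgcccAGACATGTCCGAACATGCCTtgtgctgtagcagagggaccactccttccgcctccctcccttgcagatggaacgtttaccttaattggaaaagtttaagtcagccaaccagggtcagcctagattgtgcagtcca
The B3GAT1 stretch is a tandem repeat that holds TGAGTCA 3 times. Of its 32-base words, 70.4% occur more than once in the genome, and the FAM27E3 stretch gave 71.0%. The other 3 stretches gave 0.0% to 1.78%.

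The lists were not alike. The WT 0 h lists and WT 1 h replicate 1 carry peak names without the word input, while the other 7 H3K27ac lists and all 6 H3K4me1 lists carry it. The 3 lists without it placed 7.88% to 8.14% of their peaks over 100 kb from a coding start, and WT 1 h replicate 2 placed 6.02% there. WT 10 h replicates had 4.92% and 5.13%, and the 4 RAD21 line lists had 5.09% to 5.60%. Both WT lists at 0 h lack the word and both at 10 h carry it, so a direct comparison of these lists carries time and form together, and only WT 1 h has 1 list of each form. Of the members, 115 were called only in lists without the word and 474 only in lists with it, while 2185 were called in lists of both forms.

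Markers fitted the labelled origin in part. Coding promoters of EPCAM, KRT8, KRT18, KRT19, CDH1 and CDX2 had an H3K27ac peak in all 10 lists, and those of the intestinal genes CDX1 and VIL1 in 0. Promoters of PTPRC, PECAM1, COL1A1, ALB and GFAP, which mark other cell types, also had a peak in 0 lists.

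H3K4me1 lists placed a larger share of their peaks in gene deserts than the WT H3K27ac lists did. The 6 H3K4me1 lists gave 11.0% ± 0.44 (SD, n = 6), from 10.3% to 11.5%, and the 6 WT H3K27ac lists gave 6.67% ± 1.49 (SD, n = 6). The groups did not overlap, with a difference of 4.29 percentage points (exact two-sided permutation test, p = 0.00216). Both marks were measured at the same 3 times, and the test did not pair lists by time. H3K4me1 lists held 84492 to 92943 broad peaks and the WT H3K27ac lists 31640 to 49127 narrow peaks. With a −log10 q of at least 5 the difference was 2.10 points. The part of list size and peak type was not tested. The RAD21 line lists gave 5.34% ± 0.28 (SD, n = 4) against 7.50% ± 0.99 (SD, n = 4) in WT at the same times (exact two-sided permutation test, p = 0.0286). Of the 4 WT lists in that comparison 3 lacked the word input, and the 1 that had it lay at 6.02%, nearest to the RAD21 line. Without any 1 of the 8 lists the smallest p that the test allows is 0.0571.

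**Figure D1:**
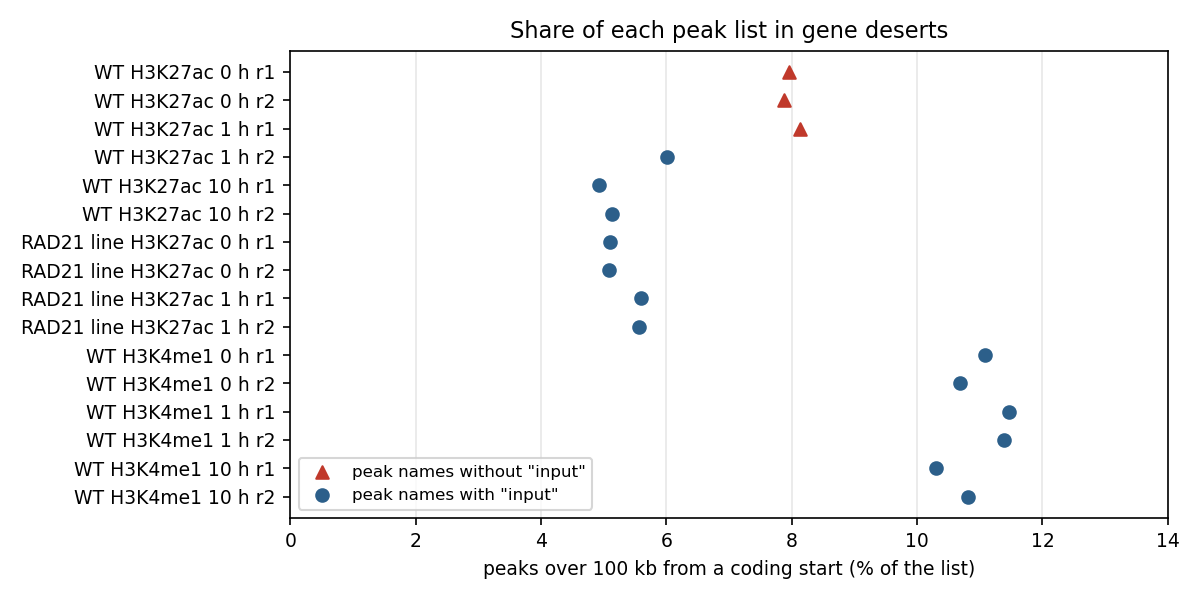
Each point is 1 peak list, and the horizontal axis gives the percent of its peaks whose midpoint lies over 100 kb from a coding start. Triangles are the 3 lists whose peak names lack the word input, at 7.88% to 8.14%, and H3K4me1 lists sit between 10.3% and 11.5%.

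The members were scattered widely within the deserts. Territory over 100 kb from a coding start made up 961.42 Mb, 33.6% of the sequenced genome, and held 2.89 members per Mb. The remaining genome held 21.6 regions per Mb that met the same call rule. Members had a median width of 1248 bp, against 1250 bp for the 12760 regions at 10 to 100 kb and 2211 bp for the 14278 at up to 1 kb. They covered 5.25 Mb, which is 0.546% of the territory. The members just inside the distance threshold lay 100007 bp from NEGR1, 100065 bp from DLGAP1 and 100071 bp from NAB1. The regions just outside lay 99929 bp from AVL9, 99911 bp from AKR1E2 and 99813 bp from CCZ1B.

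The name describes distance from a start and not the absence of genes. Outside coding genes and long noncoding RNA genes lay 1391 members (50.1%), and 1054 lay in long noncoding RNA genes only. Pseudogenes and other gene classes were not checked for this count. Introns of long coding genes held 307 (11.1%), and 22 (0.793%) touched an exon of a coding gene. A long noncoding RNA gene lay under 1098 members (39.6%), against 20.1% of regions at 10 to 100 kb and 28.6% of the bases of the desert territory itself. Overlap with a long noncoding RNA start, 1000 bp before to 200 bp after it, was seen for 333 members (12.0%), for 8.32% at 10 to 100 kb, for 19.8% at up to 1 kb and for 11.7% of all 43683 regions.

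Density differed between chromosomes. It was highest on chromosome 22, with 8.70 members per Mb of desert, followed by chromosome 17 with 5.98 and chromosome 12 with 5.54. It was lowest on chromosome Y with 0.574 per Mb and chromosome 19 with 0.933, followed by chromosome 18 with 1.06 and chromosome 11 with 1.30. Chromosome 2 held the most members, 282, and chromosome 6 held 233. Members made up 12.1% of the called regions of chromosome 4 and 0.152% of those of chromosome 19, which is dense in genes.

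Members were called in either nearly all groups or few. Both lists of all 5 groups called 984 members (35.5%), which therefore had a peak in all 10 lists, and 869 (31.3%) were called in both lists of 1 group only. At 10 to 100 kb these shares were 33.2% and 35.3%, and over all 43683 regions 42.9% and 32.2%. Members of all 10 lists were wider, with a median of 2171 bp, than those of 1 group, with 738 bp. Among single-group members 299 belonged to WT 10 h, 208 to WT 0 h, 180 to the RAD21 line at 1 h, 102 to that line at 0 h and 80 to WT 1 h. Each list called between 1555 and 1993 members, the fewest in the RAD21 line at 0 h, with 1555 and 1644.

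Signal rank placed the members in the middle of their lists. The percentile is the position of a region by −log10 p-value among the regions called in the same list, with 100 for the strongest. Median percentiles of members ran from 37.6 in WT 0 h replicate 2 to 59.6 in WT 10 h replicate 1. Regions at 10 to 100 kb ran from 37.9 to 54.2. The 3 lists without the word input held the 3 lowest member medians, 37.6, 38.3 and 39.1. They were also the shortest H3K27ac lists, with 31640 to 33976 peaks against 39092 to 49127 in the others. A percentile depends on how many weak regions its list holds, so percentiles of lists of unlike length are not strictly comparable. Median fold enrichment of members ran from 4.29 to 7.75.

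The strongest member lay at chr11:134720898-134722676 near B3GAT1, with percentiles of 99.1 to 100.0 in the 10 lists. Its summit is the tandem repeat printed above. The next were a member of the chromosome 8 desert near ZFAT, at 96.7 to 99.7, and chr9:132174347-132177766 near NTMT1, at 96.9 to 99.9. A member at chr12:25536706-25540832 near LMNTD1 and another at chr1:149222167-149225852 near H3-7 completed the 5 highest, with lows of 95.4 and 91.8 in RAD21 line 1 h replicate 2. All 5 had H3K4me1 in all 6 lists.

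Reads from near-identical copies of a sequence cannot be placed with certainty, so repeated summits were counted. In 571 members (20.6%) at least 50% of the 32-base words around the summit occurred more than once in the genome, against 17.1% at 10 to 100 kb and 4.97% at up to 1 kb. A further copy within the same window, as in a tandem repeat, also counted. A further measure of difficult sequence was nearness to an assembly gap of at least 1 Mb. There were 94 members (3.39%) within 1 Mb of such a gap, against 0.705% at 10 to 100 kb, and 36 of the 94 had no H3K4me1 in any list.

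H3K4me1, which the choice of members did not use, was present at most of them before Nutlin-3a. Both H3K4me1 lists at 0 h overlapped 2378 of 2774 members (85.7%, 95% Wilson interval 84.4% to 87.0%, counting error only). At 1 h the number was 2386 (86.0%) and at 10 h 2440 (88.0%). Regions at 10 to 100 kb had 82.3% at 0 h, those at 1 to 10 kb had 63.2% and those at up to 1 kb had 86.8%. All 6 lists overlapped 2339 members (84.3%), and none overlapped 235 (8.47%).

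The H3K4me1 state followed the group that called the member. Of the 984 members called in all 10 lists, 967 (98.3%) had H3K4me1 in both 0 h lists. Members called in the RAD21 line at 1 h only had it in 171 of 180 cases, and those of WT 1 h only in 75 of 80 (93.8%). Those of WT 0 h only had it in 146 of 208 (70.2%) and those of the RAD21 line at 0 h only in 57 of 102 (55.9%). Members of WT 10 h only had the lowest share, 120 of 299 (40.1%), which was 180 (60.2%) in the 10 h H3K4me1 lists. Lower shares at 10 h were not particular to members. Of members called in both WT H3K27ac lists of a time, 93.25% at 0 h and 90.05% at 10 h had H3K4me1 in both lists of that time. Regions at 10 to 100 kb had 97.04% and 83.93%, and all regions 97.62% and 80.28%. H3K4me1 was measured in WT alone, so its state in the RAD21 line is not known from these lists.

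**Figure D2:**
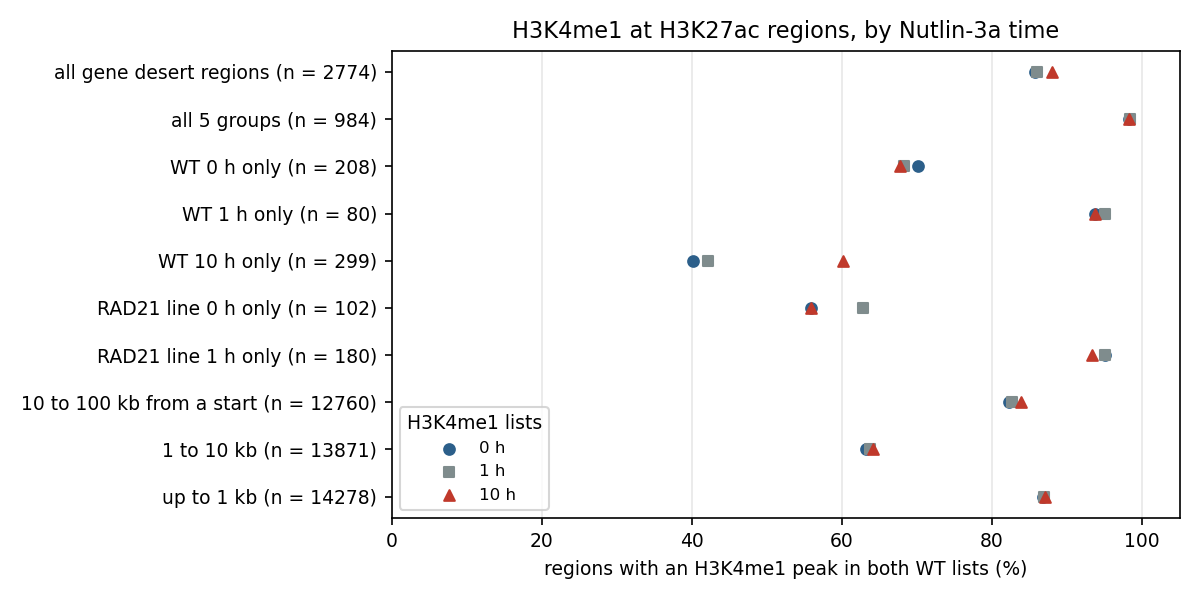
The horizontal axis gives the percent of regions with an H3K4me1 peak in both WT lists at 0 h (circles), 1 h (squares) or 10 h (triangles), and rows give the members by the groups that called them and the nearer regions by distance. Members called only in WT 10 h lists have the lowest share, 40.1% at 0 h and 60.2% at 10 h. The rows for single groups cover members alone.

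Few members differed in H3K4me1 calls between times. At 10 h, 55 members (1.98%) had H3K4me1 in both later lists and in neither 0 h list, and 5 (0.180%) had the opposite pattern. Over all 43683 regions these shares were 1.28% and 0.309%. At 1 h there were 14 members in the first direction (0.505%) and 8 in the second (0.288%), beside 0.698% and 0.311% of all regions.

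Members lay in clusters when those less than 50 kb apart were chained. There were 1528 clusters, of which 1015 were a lone member, and 89 held 5 or more. Those 89 held 725 members (26.1%). In them 41.0% of members were called in all 10 lists, against 30.3% of lone members, and 46.9% lay in a long noncoding RNA gene, against 37.1%.

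The largest cluster held 37 members over 295.6 kb at chr12:76012663-76308282, between KRR1 and PHLDA1, a gene known as a marker of intestinal stem cells. Its members covered 56.3% of the span, and all 37 had H3K4me1 in both 0 h lists. It had 19 members in all 10 lists, 21 and 19 called at 0 h in WT, 20 and 35 at 1 h, and 34 and 33 at 10 h. WT 1 h replicate 2, whose names carry the word input, thus matched the 10 h lists and not its own replicate. Its leading member, chr12:76026166-76043350, had percentiles of 67.1 and 60.2 at 0 h, 73.4 and 94.6 at 1 h, and 93.7 and 94.6 at 10 h in WT. In the RAD21 line that member had 97.7 and 98.8 at 0 h and 87.8 and 85.3 at 1 h.

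The second cluster, of 33 members over 344.2 kb, lay on chromosome 8 downstream of MYC, the growth-driving transcription factor, and within PVT1, a long noncoding RNA gene that holds MIR1205, MIR1207 and MIR1208. Only 5 of its members were in all 10 lists, and 24 had H3K4me1 in both 0 h lists. WT lists called 11 and 13 of the 33 at 0 h, 12 and 20 at 1 h, and 24 and 21 at 10 h. RAD21 line lists called 16 and 22 at 0 h and 19 and 18 at 1 h. Its leading member, chr8:128862271-128869944 at PVT1 starts, had percentiles of 81.0 and 78.9 at 0 h, 65.0 and 81.5 at 1 h and 88.8 and 92.4 at 10 h in WT.

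The third cluster held 24 members at chr17:70293291-70619767 between SOX9, a transcription factor of intestinal stem and progenitor cells, and SLC39A11. All 24 lay in a long noncoding RNA gene and had H3K4me1 in both 0 h lists, and 10 were in all 10 lists. LINC00511 is the long noncoding RNA gene of that span, and 6 of the 10 leading members at listed noncoding starts were its own. The strongest, chr17:70583517-70589335, had percentiles of 71.4 to 90.6 over the 10 lists.

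The fourth cluster held 19 members at chr12:65842434-66116192 near HMGA2, a chromatin protein of fetal and tumour cells. All 19 had H3K4me1 in both 0 h lists and 11 were in all 10 lists. WT lists called 16 to 18 of the 19 and RAD21 line lists 14 or 15.

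The fifth cluster, at chrX:45526782-45712345, held the microRNA genes MIR221 and MIR222 and their host gene MIR222HG. Its 17 members covered 60.9% of 185.6 kb, and all 17 had H3K4me1 in both 0 h lists. WT lists called 8 and 6 of them at 0 h, 7 and 9 at 1 h, and 17 and 17 at 10 h. RAD21 line lists called 6 and 5 at 0 h and 10 and 11 at 1 h, and the 10 h counts of WT were the highest. These calls also chose the members, and 9 of the 17 were in both WT 10 h lists and neither WT 0 h list. Members overlapped 11 genes that the annotation classes as microRNA, 3 of them under a tRNA or clone name, and 7 had a mature sequence in RefSeq (GRCh38.p14). Those of MIR221 and MIR222, known as repressors of the cell cycle inhibitor CDKN1B, share the seed that the capitals mark.
hsa-miR-221-3p: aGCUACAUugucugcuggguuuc
hsa-miR-222-3p: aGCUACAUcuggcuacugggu
The member over MIR222, chrX:45606407-45650397, was 43991 bp wide. Its percentiles were 41.8 and 35.5 at 0 h, 29.3 and 71.9 at 1 h and 86.1 and 84.9 at 10 h in WT. RAD21 line lists gave 64.2 and 69.7 at 0 h, and at 1 h 69.9 and 70.2. The member over MIR221 was not called in the RAD21 line at 0 h, and stood at 4.2 and 17.0 at 0 h and 51.8 and 62.5 at 10 h in WT.

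The eighth cluster was of another kind. Its 16 members on chromosome 8 near REXO1L1 covered 9.38% of 114.2 kb, and all 16 had a repeated summit sequence. None of them was called in all 10 lists or had H3K4me1 in both 0 h lists, and 9 were called only in lists without the word input. The WT 0 h lists called 14 and 13 of them and the RAD21 line lists called 0.

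**Figure D3:**
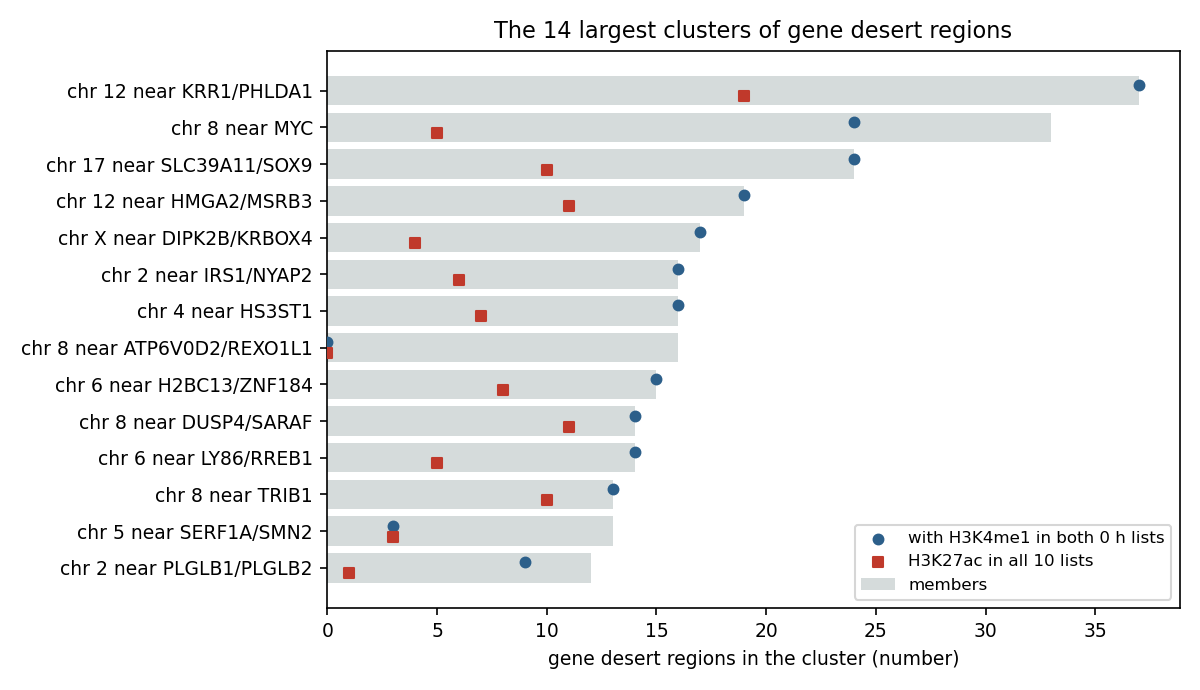
Grey bars give the number of members in each of the 14 largest clusters, circles the members with H3K4me1 in both 0 h lists and squares those with H3K27ac in all 10 lists. Circles reach the end of the bar in 10 clusters and fall short near MYC, REXO1L1, SMN2 and PLGLB1.

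Of 38 noncoding RNA genes on a list, 33 were in the annotation by name, and 23 members overlapped a start of 5 of them. The widest member of all, 78001 bp at chr7:130555283-130633283, overlapped starts of LINC-PINT, a long noncoding RNA known to be induced by p53. Its percentiles were 63.0 and 59.4 at 0 h, 63.6 and 97.1 at 1 h and 96.8 and 96.4 at 10 h in WT, and 90.9 to 97.9 in the RAD21 line. The 3 low values belonged to the 3 lists without the word input. A member over CASC19 starts on chromosome 8 showed the same division, with 59.5 to 62.4 in those 3 lists and 86.3 to 95.8 in the other 7. Starts with higher signal outside that list included ZFPM2-AS1 at a mean percentile of 95.8, LINC00963 at 95.1, LINC02882 at 90.4 and NIHCOLE at 89.1, which were chosen after their values were seen.

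A region was counted as gained when both later lists called it and neither earlier list did, and as lost in the opposite case. These calls also chose the members, so the counts are descriptions. With 2 lists against 2 the smallest exact p could not reach 0.05, and no test was made.

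At 1 h in WT, 122 members were gained (4.40%) and 179 lost (6.45%). Over all regions these shares were 3.02% and 2.65%, and at 10 to 100 kb 4.84% and 4.18%. Of the 122, 108 (88.5%) had H3K4me1 in both 0 h lists, and 25 were in both 10 h lists while 77 were in neither. The leading gain, chr22:27511293-27512993 near CRYBA4, was absent at 0 h and had percentiles of 44.9 and 61.6 at 1 h and 62.9 and 60.3 at 10 h. Next came a chromosome 8 member near ADCY8, at 45.0 and 58.4 at 1 h, and chr22:49887718-49888227 near BRD1, at 49.1 and 47.1 and in no other list. The leading losses were chrY:10019200-10020005, chr12:38493448-38493977 and chr2:83758348-83758632, none with H3K4me1 in any list, and the first 2 within 1 Mb of an assembly gap. With the 3 WT lists without the word input alone, 7.46% of members were gained and 8.00% lost at 1 h.

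At 10 h in WT, 334 members were gained (12.0%) and 261 lost (9.41%). Over all regions these shares were 22.9% and 3.82%, and at 10 to 100 kb 19.28% and 6.27%. Of the 334, 156 (46.7%) had H3K4me1 in both lists at 0 h and 217 (65.0%) at 10 h, while 93 had none in any list. Of the 261 lost members, 200 (76.6%) had H3K4me1 at 0 h and 197 (75.5%) at 10 h. The leading gain, chr9:67295747-67299184 near FAM27E3, was absent at 0 h and had percentiles of 20.5 and 75.6 at 1 h and 78.5 and 75.1 at 10 h. It was also called in all 4 RAD21 line lists, at 55.2 to 68.0. A member at chr4:78263125-78264388, 154.8 kb from the start of CCNG2, which encodes a cyclin known to slow the cell cycle, had 27.4 in WT 1 h replicate 2, 73.1 and 68.2 at 10 h and no peak in the other 7 lists. The 3 leading losses, at chr20:26189768-26190342, chr14:88237560-88237833 and chrY:10024879-10025405, had no H3K4me1 in any list, and the first and the last lay within 1 Mb of an assembly gap.

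In the RAD21 line, 346 members were gained at 1 h (12.5%) and 152 lost (5.48%), beside 9.23% and 5.76% of all regions. At 10 to 100 kb these shares were 12.9% and 5.96%. H3K4me1 lay at 338 (97.7%) of the gained members in both WT 0 h lists, and at 84 (55.3%) of the lost ones. The leading gain, chr16:48997324-48999252 near CBLN1, was absent from both RAD21 line lists at 0 h and had 64.3 and 60.5 at 1 h. In WT it had 26.8 and 46.2 at 0 h and 67.4 and 70.6 at 10 h. Another gain, chr4:34181724-34184506 in LINC02484, lay 1865 kb from the start of ARAP2, with 59.9 and 56.5 at 1 h.

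Between the lines at 0 h, 431 members were called only in WT (15.5%) and 180 only in the RAD21 line (6.49%), beside 5.68% and 10.6% of all regions. At 10 to 100 kb these shares were 9.35% and 9.255%. Both WT lists at 0 h lack the word input in their peak names and both RAD21 line lists have it, so a direct comparison of these lists carries line and name form together. At 1 h, 182 members were called only in WT (6.56%) and 135 only in the RAD21 line (4.87%), beside 2.31% and 6.48% of all regions. Regions at 10 to 100 kb had 3.74% and 7.01%. With WT 1 h replicate 2 alone, which shares the name form of the RAD21 line, the member shares were 8.87% and 9.52%. Their order turned.

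**Figure D4:**
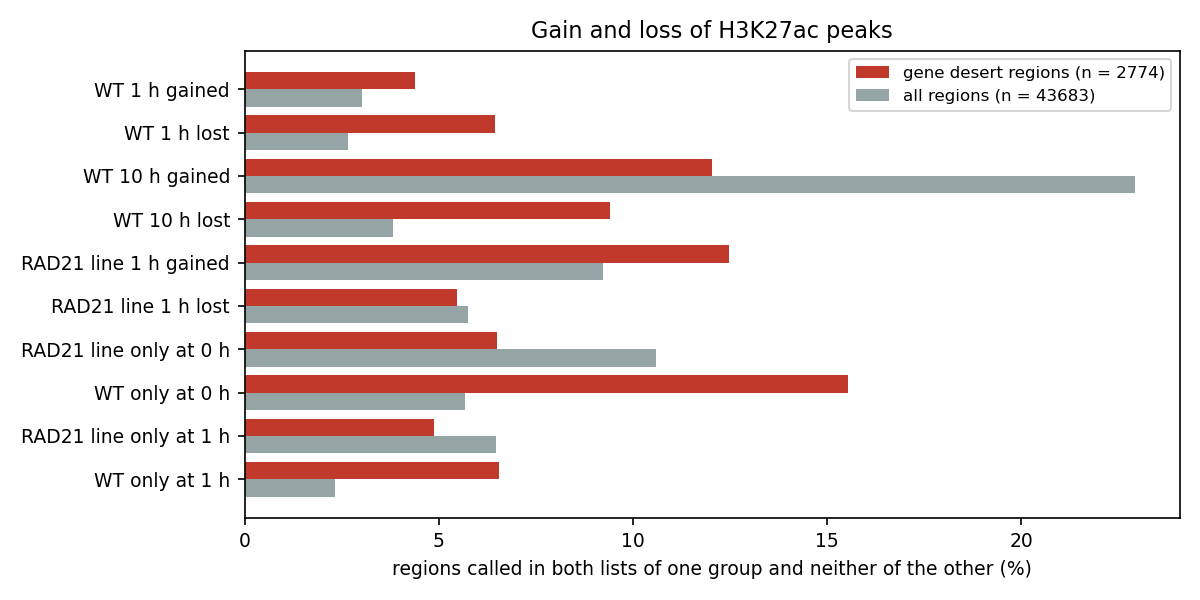
Bars give the percent of gene desert regions called in both lists of one group and in neither list of the other, beside the percent of all 43683 regions, for each comparison of times or lines. Gains at 10 h in WT reached 12.0% of gene desert regions and 22.9% of all regions.

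The members gained at 10 h were searched for the p53 response element, with up to 2 mismatches outside its core letters and on both strands, within 1000 bp around the strongest summit. Of 2774 members 149 held one (5.37%), against 3.22% of regions at 10 to 100 kb, 0.651% at up to 1 kb and 2.32% of all 43683 regions. A match is a description of letters, and p53 binding was not measured in these lists.

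Members with an element were called most often in the WT 10 h lists, as was the whole set of regions with an element. Each of those lists called 147 of the 149 (98.7%), and 97.2% and 97.8% of all 1014 regions with an element. Of the 149, 106 were members only through both WT 10 h lists, so their calls there were fixed by the choice of members. None of the 106 could be in both lists of any other group, so lower shares in the other lists partly follow from that choice. The 1014 regions had passed the same call rule, so these shares are descriptions. The WT 0 h lists called 36 and 39, the WT 1 h lists 46 and 35, the RAD21 line lists at 0 h 31 and 33, and those at 1 h 25 and 30. Over all 1014 these 8 lists called 26.4% to 38.7%. The 2625 members without an element had 1826 and 1830 calls at 10 h and 1907 and 1932 at 0 h. WT 1 h replicate 2 has the same name form as the 10 h lists and called 23.5% of the members with an element, against 69.6% of those without. The part of the choice of members in that difference was not tested.

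**Figure D5:**
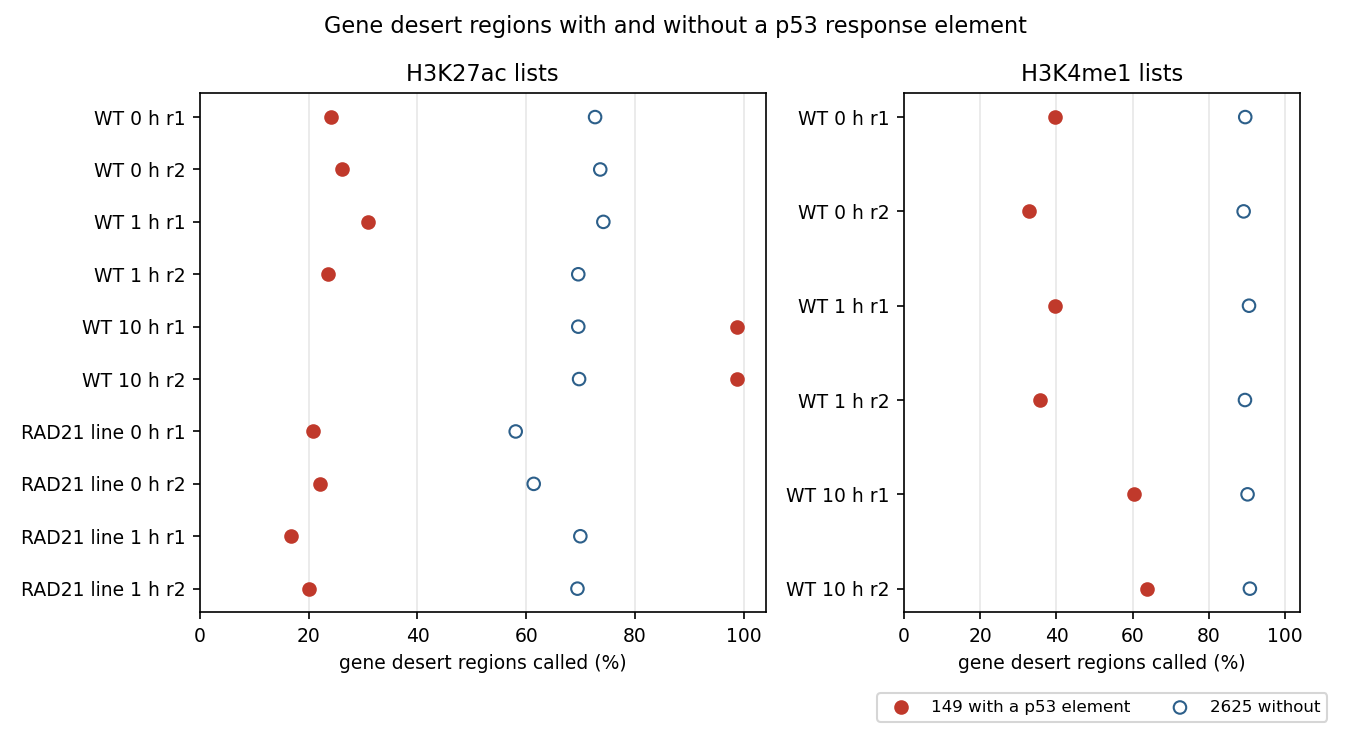
The horizontal axes give the percent of members called in each H3K27ac list (left) and H3K4me1 list (right), filled for the 149 members with a p53 response element and open for the 2625 without. Both WT 10 h lists reach 98.7% of members with an element, and the other 8 H3K27ac lists lie between 16.8% and 30.9%. The choice of members fixed the WT 10 h H3K27ac calls of 106 of the 149 and kept these out of both lists of any other group.

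Among the 334 members gained at 10 h, 100 held an element (29.9%). The share was 10.0% of gained regions at 10 to 100 kb, 4.69% at 1 to 10 kb and 3.01% at up to 1 kb. Over all 10018 regions gained at 10 h it was 657 (6.56%). Of the members gained at 1 h, 3 of 122 in WT and 3 of 346 in the RAD21 line held one, and of those lost in WT 0 did at either time. In 43 of the 100 the element lay within 100 bp of the summit, and 27 had no mismatch, 42 had 1 and 31 had 2. Using only lists with the word input, 242 members were in both WT 10 h lists and in no other, and 97 of them (40.1%) held an element. This choice of lists was made after the data were seen. For it, for the gains at 1 h and for the losses, the shares over all regions are not given here.

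Elements of 5 further gained members are shown because they include the strongest such gains and show how the element varies. They were chosen after their values were seen, from the GRCh37 plus strand, with the element in capitals. They lie at chr4:78263750-78263789, chrX:42836096-42836135, chr4:129607379-129607418, chr9:118706570-118706609 and chr6:4384226-4384265.
CCNG2 member: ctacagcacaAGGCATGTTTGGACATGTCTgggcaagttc
PPP1R2C member: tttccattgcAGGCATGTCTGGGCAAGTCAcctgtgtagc
JADE1 member: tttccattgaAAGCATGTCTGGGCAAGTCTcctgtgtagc
PAPPA member: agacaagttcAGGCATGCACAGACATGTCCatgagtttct
ECI2 member: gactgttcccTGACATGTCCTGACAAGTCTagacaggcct
The PPP1R2C and JADE1 stretches share 37 of 40 bases although they lie on different chromosomes. The PPP1R2C member had percentiles of 70.0 and 68.7 at 10 h and the JADE1 member 69.5 and 69.2, and neither had a peak in another list. The NMUR2 member printed earlier had 67.4 and 61.1 at 10 h, no peak in another list and no H3K4me1.

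H3K4me1 at members with an element was less frequent and differed between times. The 0 h lists called 59 and 49 of the 149, the 1 h lists 59 and 53 and the 10 h lists 90 and 95, so that both 10 h lists lay above the other 4. All 1014 regions with an element had 47.4% to 51.1% at 0 h and 1 h and 68.8% and 71.0% at 10 h. Members without an element had 89.1% to 90.8% in all 6 lists. H3K4me1 was in both 10 h lists and neither 0 h list at 26 of the 149 (17.4%) and at 29 of the 2625 (1.10%). Over all regions it was so at 151 of 1014 with an element (14.9%) and at 0.952% of those without. Of the 149 members 51 had no H3K4me1 in any list. All 6 H3K4me1 lists have the same name form.

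Signal rank was compared for the 984 members called in all 10 lists, within a limma fit over the 18757 regions called in all 10, with Benjamini-Hochberg adjustment over all of them. The values were ranks by −log10 p-value turned into normal scores, so a change of 1 equals 1 SD of a list's ranks and is no fold change. Ranks in the fit were among the 18757 regions, while the percentiles given beside them are among all regions of a list. The member median of the SE was 0.19 for each difference between groups. At 10 h against 0 h in WT 179 members were higher (18.2%) and 56 lower (5.69%), beside 9.7% and 8.56% of all regions, and the member median was 0.05. With the form of the peak name as a term 23 were higher and 9 lower, and without WT 0 h replicate 2 there were 42 and 9.

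Members with an element were mostly higher in that comparison. Of 10 tested, 9 were higher and 0 lower by limma, with changes of 0.21 to 1.98 and a median of 1.31. Of all 126 tested regions with an element 73 were higher and 2 lower, with a median of 0.70, and the difference between members and these was not tested. The strongest, chr4:31234766-31240817 near PCDH7, which encodes a protocadherin, had percentiles of 43.1 and 38.3 at 0 h, 54.9 and 73.4 at 1 h and 90.7 and 91.1 at 10 h. Its RAD21 line values were 56.4 to 66.0, so the 10 h values lay above all others, and it rose by 1.98 ± 0.16 (SE, limma, Benjamini-Hochberg adjusted p = 3.34e-05). The member at chr14:67397733-67400976 in an intron of a coding gene near the GPHN start had 46.9 and 43.3 at 0 h and 86.2 and 85.1 at 10 h, a rise of 1.40 ± 0.13 (SE, limma adjusted p = 8.53e-05). Among the lower members the smallest p belonged to chr18:37378999-37380470 at the start of MIR924HG, from 58.5 and 56.2 to 52.3 and 49.8, which fell by 1.07 on the normal-score scale (SE 0.13, limma adjusted p = 0.000458).

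At 1 h against 0 h in WT 131 members were higher (13.3%) and 108 lower (11.0%), beside 14.3% and 14.8% of all regions. Without WT 0 h replicate 2 there were 61 and 30, and without WT 1 h replicate 1 there were 228 and 165. The member at chr20:52389263-52392996 near ZNF217, a zinc finger gene amplified in tumours, went from 37.6 and 39.7 to 64 and 75.0, a rise of 1.22 ± 0.17 (SE, limma adjusted p = 0.000332). The member near LMNTD1, 1 of the 5 strongest in all 10 lists, went from 99.9 and 99.9 to 95.9 and 96.2 and was back at 99.9 in both 10 h lists. In the RAD21 line at 1 h 95 members were higher (9.65%) and 167 lower (17.0%), beside 14.4% and 13.4%. Without RAD21 line 1 h replicate 2 there were 41 and 92. The member at chr13:109805921-109810407 near MYO16 went from 35.5 and 30.7 to 73.3 and 71.9 (1.84 ± 0.16 SE, limma adjusted p = 1.81e-05). The member at chr1:147734876-147737984 near NBPF24 went from 97.6 and 97.7 to 77.3 and 77.5 (-1.50 ± 0.12 SE, limma adjusted p = 9.7e-06).

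Between the lines at 0 h 155 members were higher in the RAD21 line (15.8%) and 189 lower (19.2%), beside 16.8% and 20.7%. Without WT 0 h replicate 1 there were 89 and 95. At chr14:89506618-89508668 near FOXN3, a forkhead gene, WT had 58.8 and 61.5 and the RAD21 line 96.9 and 97 (1.87 ± 0.14 SE, limma adjusted p = 9.64e-07). At chr9:66698642-66702137 near FAM27E3 WT had 80.6 and 76.9 and the RAD21 line 12.8 and 39.6 (-2.52 ± 0.21 SE, limma adjusted p = 2.55e-06). At 1 h 20 were higher (2.03%) and 124 lower (12.6%), beside 5.68% and 6.16%. Without RAD21 line 1 h replicate 2 there were 3 and 39, and without WT 1 h replicate 2 there were 95 higher. A PVT1 member at chr8:128870733-128873704 was among the higher, with 43.0 and 61.9 in WT and 76.3 and 75.6 in the RAD21 line (0.91 ± 0.15 SE, limma adjusted p = 0.00335).

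The 1 h response differed between the lines, by the interaction term of the same limma fit, at 51 members in the higher direction (5.18%) and at 128 in the lower (13.01%), beside 11.7% and 11.0% of all regions. Without WT 1 h replicate 1 there were 106 and 202, and without RAD21 line 1 h replicate 2 there were 27 and 82. Of the 128, 107 had a positive estimate in WT and a negative one in the RAD21 line, and 21 had the same sign in both. A lower term means that the change in the RAD21 line was below that in WT, so the reverse pattern could not occur. The split over all regions is not given here. When regions were ranked by their fold enrichment, limma gave 0 higher and 0 lower members at an adjusted 0.05 for this term, for both 1 h comparisons and for the lines at 1 h. Unadjusted p under 0.05 was then reached by 132 members for the interaction, 162 and 174 for 1 h in WT and the RAD21 line, and 209 for the lines at 1 h.

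The H3K4me1 regions at members were compared in a separate limma fit over 60476 regions, of which 1960 lay at members. At 1 h 11 were higher and 1 lower (0.561% and 0.0510%), beside 0.291% and 0.304% of all. At 10 h 16 were higher (0.816%) and 0 lower, beside 0.615% and 0.0231%, while 100 and 57 had an unadjusted p under 0.05 in limma. A region near NDUFA10, chr2:240627596-240629791, was higher at both times, by 1.43 ± 0.25 and 1.90 ± 0.25 (SE, limma adjusted p = 0.0221 and 0.003). The 47 tested regions at members with an element had a median change of 0.48 at 10 h, with 41 of 47 positive and 6 higher by limma, and -0.02 at 1 h. Members with an element were largely chosen through WT 10 h H3K27ac calls, and the part of that choice here was not tested. Without either 10 h list 0 were higher at 10 h. Ranking by fold enrichment left 0 calls at either time, with 237 and 148 unadjusted p under 0.05 in limma at 1 h and 10 h.

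Other sequence features were counted in the same 1000 bp. The AP-1 site, TGACTCA or TGAGTCA, was in 1459 members (52.6%), against 44.5% at 10 to 100 kb, 14.1% at up to 1 kb and 31.0% of all regions. It was in 69.4% of members called only in the RAD21 line at 1 h and in 23.4% of those called only in WT at 10 h. The other single-group sets lay between, at 29.4% to 52.5%. Shares over all regions called in those groups alone are not given here. The TEAD site GGAATG was in 48.6% of members and 41.9% of all regions, the TCF and LEF site CTTTGAT in 15.7% and 9.87%, and the forkhead site TGTTTAC in 16.4% and 11.1%. At 10 to 100 kb these sites were in 46.9%, 12.3% and 13.4% of regions, in the same order. Median GC content of the windows was 43.8% in members and 61.9% at up to 1 kb. The base composition of the windows thus differed, and its part in the motif shares was not tested.

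The members farthest from any coding start lay on chromosomes 4 and 18. At chr4:33370651-33371793, 2444 kb from PCDH7, percentiles were 31.9 to 38.5 in WT at 0 h and 1 h and 50.9 and 56.0 at 10 h, with no peak in the RAD21 line at 0 h and 36.6 and 30.0 at 1 h. The member at chr4:33748330-33749570, 2299 kb from ARAP2, held a p53 response element. It had 16.3 to 32.7 in WT at 0 h and 1 h and 72.5 and 67.5 at 10 h, and in the RAD21 line only 44.2 in 1 list at 0 h.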

How the data were processed

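H3K27ac and H3K4me1 ChIP-seq peak lists of HCT116 cells were used, 16 in all, and the 10 input libraries were not analysed here. Per the submitters' processing notes and the study's methods, the authors trimmed reads with Trim Galore 0.6.6, aligned them to GRCh37 with Bowtie2 2.3.2 and called peaks per library against an input with MACS2 2.2.7.1, as narrow peaks (H3K27ac) or broad peaks (H3K4me1). The deposited lists give a fold enrichment (ratio over control), a −log10 p-value and a −log10 q-value per peak, a score made from them and no read counts. The deposited peak names of 3 H3K27ac lists lack the word input. Whether their control differed is not given in the sources used here.

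Peaks of the 10 H3K27ac lists were merged, and distances were taken from the midpoint to coding starts of GENCODE annotation on GRCh37. The members and the gene lists were chosen with earlier results of these data known. A listed marker of another cell type is not reported here. Named regions were the 5 members with the highest percentile in all 10 lists, the leading 3 for each gain and loss within a line, the leading 2 in each direction of each rank contrast, the 3 farthest from a coding start and members at listed noncoding starts. A long noncoding RNA start spanned 1000 bp before to 200 bp after it. Ranks by −log10 p-value were turned into normal scores and fitted with limma 3.58.1 in R 4.3.3, with the list as the replicate and Benjamini-Hochberg adjustment at 0.05. The fit was tested on simulated data. Shares of peaks were compared with exact permutation tests in scipy 1.17.1. Other steps used Python 3.11.15, pandas 2.3.3, numpy 2.4.6 and pysam 0.24.0, and figures matplotlib 3.10.9. Wilson intervals at 95% cover counting error only. Repeated sequence was counted from 32-base words. Alternatives were other distances, a stricter q-value, other coding starts, other ranking, a replicate block, the form of the peak name and leaving out each list.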

Additional observations from a re-analysis of the deposited data

Results flagged for a closer look

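WT H3K27ac 1 h replicate 2 placed 6.02% of its peaks over 100 kb from a coding start, far from the other 3 WT lists at 0 h and 1 h. Its gap to the nearest of them was 0.878 of the whole range, above the critical value of 0.829 for 4 samples, which chance passes in about 1 of 20 groups. Other groupings of the lists were checked in the same way and none passed, so that rate does not cover the whole set of checks. Among all 6 WT H3K27ac lists the gaps at the ends were 0.0657 and 0.0559, below the critical value of 0.625. WT H3K27ac 1 h replicate 2 is also the 1 list of the 4 at 0 h and 1 h whose peak names carry the word input. The part of that form in its gap was not tested.

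The 1 h response of the H3K27ac rank differed between the RAD21 line and WT by the interaction term in limma at 51 members in the higher direction and 128 in the lower. The member near LY86 differed by 1.45 ± 0.20 (SE, limma Benjamini-Hochberg adjusted p = 0.00029), with -0.74 in WT and 0.71 in the RAD21 line. The member near CCDC3 differed by 1.41 ± 0.20 (SE, limma adjusted p = 0.000422), with -0.51 in WT and 0.90 in the RAD21 line. The member near NBPF24 differed by -1.97 ± 0.17 (SE, limma adjusted p = 2.17e-05), with 0.47 in WT and -1.50 in the RAD21 line. The member near NTMT1 differed by -1.98 ± 0.19 (SE, limma adjusted p = 3.96e-05), with 0.50 in WT and -1.48 in the RAD21 line.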

How the results depend on the processing

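Among the alternative values 252 kept their side and size, 126 moved and 8 lost the threshold, and no single value changed sign. The order of gains and losses at 1 h in WT turned at the stricter q and, with 7.35% and 7.32%, without WT 0 h replicate 2, and the order of the lines at 1 h turned within 1 name form. There were 5179 members over 50 kb, 1355 over 200 kb and 4251 with basic coding starts. With a −log10 q of at least 5, 2.37% of members were gained and 2.28% lost at 1 h in WT, 6.66% and 3.96% at 10 h, 2.65% were lost in the RAD21 line, and at 0 h 4.00% were called in the RAD21 line alone and 9.36% in WT alone. Within 1 name form 7.46% were gained at 1 h in WT and 9.52% were only in the RAD21 line at 1 h. Leaving out 1 list gave 6.31% to 8.69% gained and 7.32% to 13.2% lost at 1 h in WT, 5.44% to 9.52% absent from WT at 1 h and 8.54% to 11.8% absent from the RAD21 line at 1 h, each highest value without a WT 1 h list. H3K4me1 in both 0 h lists stood at 87.4% over 50 kb, 83.2% over 200 kb, 76.3% at the stricter q, 81.5% with cover of at least 50% and 89.8% without repeated summits. At 1 h these were 87.9%, 83.4%, 76.4%, 83.1% and 89.7%, and at 10 h 85.7% over 200 kb, 74.4%, 83.6% and 92.0%. Noncoding RNA genes held 36.5% over 50 kb and 32.1% with basic starts, and their starts 13.6%. The share of 10 h gains with a p53 element was 35.2% without repeated summits, 40.1% in no other list named with input and 24.0% over 50 kb, alternatives chosen after seeing the data. Ranking by fold enrichment left 103 members higher and 94 lower in WT at 10 h, 68 higher in the RAD21 line at 0 h, and 0 for 1 h in WT, 1 h in the RAD21 line, the lines at 1 h, the interaction and H3K4me1. H3K4me1 without a trend also gave 0. With name form as a term there were 23 higher and 9 lower at 10 h in WT, 157 higher at 1 h in the RAD21 line, 95 and 47 higher in that line at 0 h and 1 h, and 95 higher for the interaction. Leaving out 1 list gave 60 to 228 higher and 30 to 165 lower at 1 h in WT, 42 to 247 and 9 to 123 at 10 h, 41 to 155 and 92 to 245 at 1 h in the RAD21 line, 88 to 199 and 95 to 243 between lines at 0 h, 1 to 95 and 39 to 181 at 1 h, and 22 to 106 and 82 to 202 for the interaction. For H3K4me1 it gave 2 to 7 higher and 0 to 1 lower at 1 h and 0 to 17 higher at 10 h. The share of RAD21 line peaks in deserts differed from WT by -2.65 to -1.95 points (exact permutation test, p = 0.0571 each). Replicate numbers did not pair the lists, since deviations of same-numbered lists correlated at -0.05 to 0.05, and the replicate block gave 5 lower H3K4me1 regions at 1 h and moved no other count by over 1.5 times. The cause of these differences was not tested.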
